A study of Homo sapiens with 2 samples.

Results

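The genes described here encode the mTOR complexes with their upstream switch and substrates, and the proteins that build, load and clear autophagosomes. They were listed by gene symbol and found in the array annotation through a probe set (a group of probes read as 1 value) that names exactly 1 gene. All 47 were found among the 19775 genes so named. The rule used the genes' function and no measured value, though earlier results of these arrays were known when it was written. RNA was recovered by immunoprecipitation from 293T, a line of human embryonic kidney cells that carries the large T antigen of SV40, and read on Affymetrix U133 Plus arrays. One array held an Ago2 precipitate (Ago2 is an Argonaute protein, the carrier of microRNAs) from cells given synthetic miR-941 at 30 nmol/l. The control array came from cells given a scrambled oligonucleotide at 30 nmol/l. It is titled as an Ago2 precipitate, but nonimmune IgG beads are entered as its antibody. Should that entry be right, the oligonucleotide and the antibody differ together and cannot be told apart. With 1 array per group and no input RNA, no difference has a replicate check or a p-value, and recovery in the precipitate cannot be told apart from the amount of mRNA in the cells.

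The kinase mTOR works in a pair of complexes. The first, built on RPTOR, sits on the lysosome, is switched on by the small GTPase RHEB when nutrients and growth factors are present, and drives protein synthesis through S6 kinases and the 4E-BP inhibitors of cap-dependent translation. The second, built on RICTOR, acts on AKT and other kinases of its class. When the first complex is active it phosphorylates ULK1, ATG13 and the transcription factor TFEB, which holds autophagy and lysosome synthesis back. When it is inactive, the ULK kinase complex starts a membrane that a class III PI3 kinase marks, a ubiquitin-like conjugation system coats with ATG8 proteins, cargo receptors load, and lysosomes finally digest.

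The microRNA added to the cells is shown because it is the agent that the study added; its seed (bases 2 to 8) is in capitals.
hsa-miR-941: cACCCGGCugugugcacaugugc
RefSeq places 5 copies of this 23-base mature sequence on chromosome 20 in GRCh38.p14, on the plus strand, the first at chr20:63919495-63919517. None of the other mature microRNA names in the RefSeq table, which lists 2370 names, has the same seed. Messenger RNA sequence was not used here, so matches to the seed in the genes below were not counted.

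The array medians were 0.92 (control) and 0.98 (miR-941) on the deposited scale, taken as log2. A gene was called detected when its brightest probe set averaged above 0.92 over both arrays, and 13150 genes were. Of 12 kidney, neural and filament genes known from the line that gave rise to 293T, 11 were detected, with VIM at 8.82 and 8.70 and NEFL at 6.99 and 7.37 (control and miR-941). Of 15 genes that mark other cell types 7 were detected, none with a mean above 2.60: COL1A1, ACTA2, KRT5, PECAM1, GFAP, VWF and APOA1. The others, PTPRC, CD3E and ALB among them, were below the detection level. The summed log2 values of these 15 markers were 13.3 (control) and 14.5 (miR-941), and their part in the results was not tested. The control probe sets for the ACTB mRNA differed by -0.66 at its 5' end, -0.37 in the middle and -0.04 at its 3' end, miR-941 minus control. Those for the GAPDH mRNA differed less, by -0.19, -0.07 and 0.05 at the same places. The part of these end differences in the results below was not tested.

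More mTOR and autophagy genes read lower than higher on the miR-941 array. All 47 members were detected, where 13150 of all 19775 genes named were. On the brightest probe set 30 members were lower, 14 higher and 3 equal. That is 63.8% lower, where 42.4% of all detected genes were lower, and 29.8% higher, where 46.3% of all were higher. The counts by role below rest on 3 to 10 genes each and are to be read beside these shares of all genes. The median log2 difference (miR-941 array minus control array) was -0.12 for the members and 0.00 for all detected genes. Of the members, 2 were at least 2-fold lower, RPTOR and ULK1, which is 4.26% where the share over all detected genes was 0.289%. None was at least 2-fold higher, where the share was 0.228%. At 1.5-fold, 3 members were lower (6.38%, background 2.87%) and none higher (background 2.94%). Beside RPTOR and ULK1 this threshold added only ULK2, whose 3 detected probe sets had a median of 0.00. Most differences were small: the spread of the difference between probe sets of the same gene (within-gene SD, over 6106 genes) was 0.29, and probe sets are not replicates. The SD of the differences of all detected genes was 0.30. The share of all detected genes beyond 0.29 was not counted. The plot of both arrays' values shows the members by role.

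**Figure D1:**
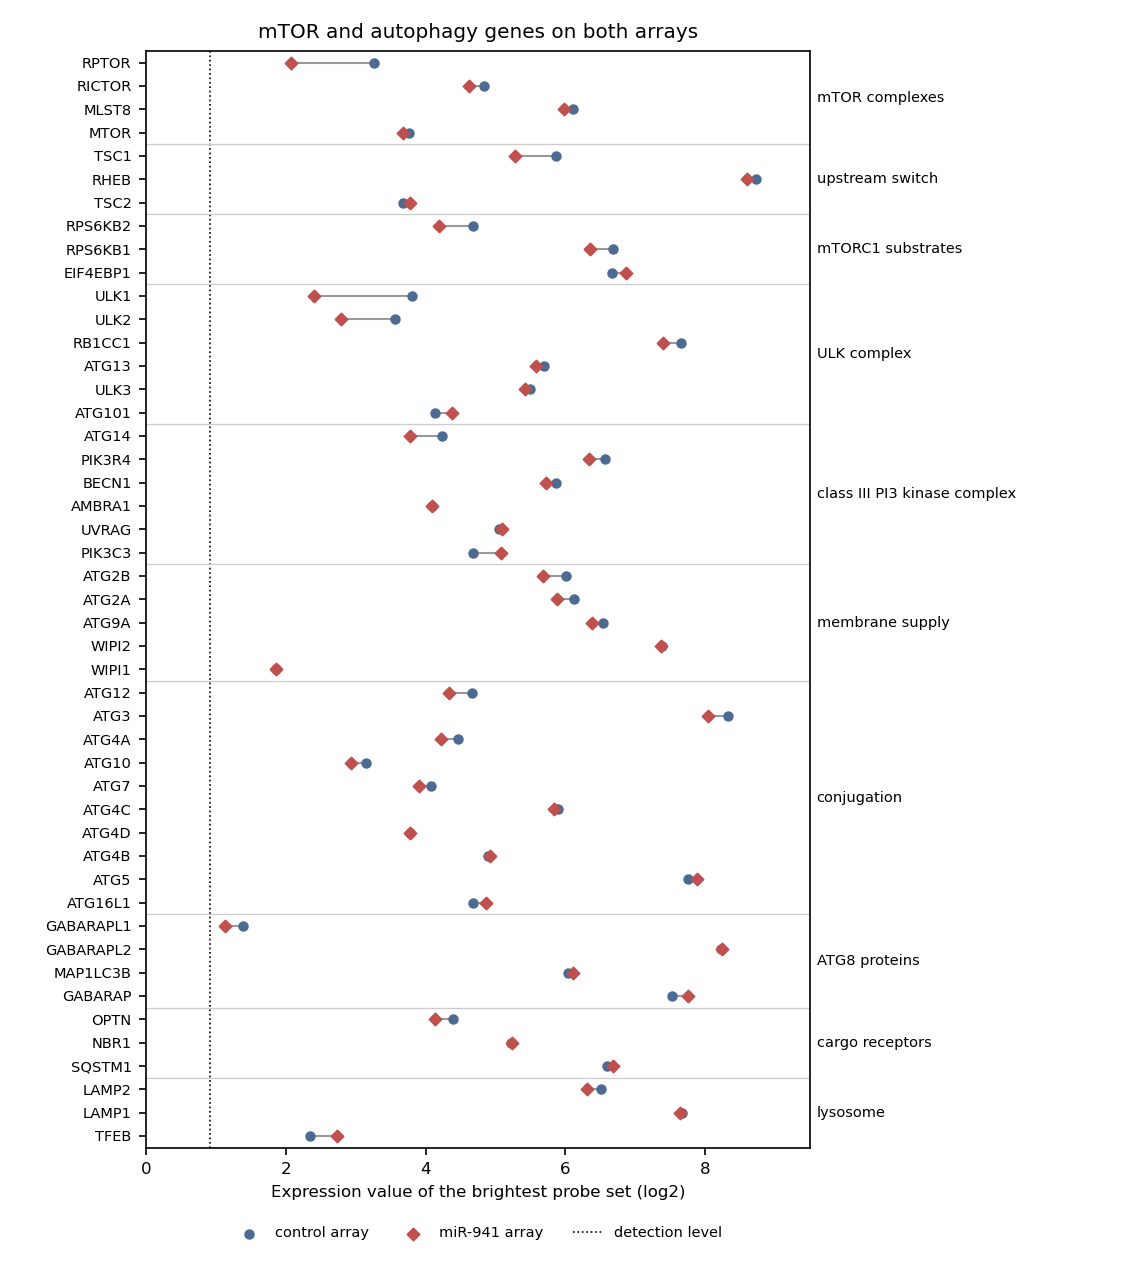
Expression value (log2) of the brightest probe set of each of the 47 genes on the control array (circles) and the miR-941 array (diamonds), grouped by role and ordered by difference within a role. The dotted line is the detection level of 0.92; a gene with a single visible symbol read nearly or exactly the same on both arrays, and values of different genes are not comparable with each other. RPTOR, ULK1 and ULK2 have the widest gaps, all with the miR-941 array lower.

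All 4 genes of the mTOR complexes read lower on the miR-941 array on the brightest probe set, where 42.4% of all detected genes were lower. RPTOR, which brings substrates to the first complex, read 3.26 in the control and 2.07 with miR-941, a log2 difference of -1.19 or 2.28-fold. It was the gene with the 17th lowest difference of the 13150. The kinase gene MTOR itself read 3.76 and 3.67 (-0.09), so its difference lay within the spread between probe sets. MLST8, a subunit of both complexes, read 6.11 and 5.98 (-0.13). RICTOR, the scaffold of the second complex, read 4.83 and 4.62 on its brightest probe set (-0.21). Its other detected probe sets disagreed: one read 1.97 and 2.12, slightly higher on the miR-941 array, and the other 1.91 and 0.87, a difference of -1.04. RICTOR therefore has no single direction over its 3 detected probe sets, and RPTOR rests on 1 probe set with nothing to set beside it.

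Of the 3 genes of the upstream switch 2 were lower and 1 higher, and TSC1 alone lay beyond the 0.29 spread between probe sets of a gene. TSC1, which with TSC2 forms the complex that turns RHEB off, read 5.86 in the control and 5.28 with miR-941, a difference of -0.58 (1.49-fold). Its partner TSC2 read 3.67 and 3.78, a difference of 0.11 in the other direction. RHEB, the GTPase that activates mTOR, read 8.72 and 8.60 on an _x_at probe set, a design that can also bind related sequences. Of its 4 detected probe sets 3 were lower and 1 equal, with a median difference of -0.15 ± 0.30 (SD over 4 probe sets) and the lowest at -0.68. A further 5 RHEB probe sets were below the detection level.

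Among the substrates of the first complex, both S6 kinase genes were lower and the translation inhibitor was higher. RPS6KB1, the main S6 kinase, read 6.68 in the control and 6.35 with miR-941. Its 3 probe sets differed by -0.33, -0.27 and -0.52, so they all lay on the lower side, with a median of -0.33 ± 0.13 (SD over 3 probe sets). RPS6KB2, the second S6 kinase, read 4.68 and 4.19 (-0.48) on 1 probe set. EIF4EBP1, which binds the cap-binding protein and blocks translation until mTOR phosphorylates it, read 6.67 and 6.86 (0.20). Over the 10 genes of the mTOR arm, 8 were lower and 2 higher, with a median of -0.17. That is 80% lower and 20% higher, where 42.4% of all detected genes were lower and 46.3% higher. Of the lower genes, MTOR (-0.09), RHEB (-0.12), MLST8 (-0.13) and RICTOR (-0.21) lay within the spread between probe sets of a gene. RPTOR, TSC1, RPS6KB1 and RPS6KB2 lay beyond it, a share that was not counted over all detected genes. A wider list of mTOR genes, described below, did not lean this way: of 45 detected, 18 were lower and 20 higher.

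Of the 6 genes listed with the ULK complex, which receives the mTOR signal and starts autophagy, 5 were lower on the brightest probe set. That is 83.3%, where 42.4% of all detected genes were lower. ULK1, its kinase, read 3.81 in the control and 2.40 with miR-941, a difference of -1.40 or 2.65-fold, the 5th lowest of the 13150 genes. Like RPTOR it rests on 1 probe set. ULK2, the related kinase, read 3.55 and 2.79 (-0.77) on its brightest probe set, but its other detected probe sets read 1.78 on both arrays and 1.07 and 1.70, which is higher on the miR-941 array. The median over the 3 was 0.00, so ULK2 was lower on 1 probe set alone. RB1CC1 (FIP200), the large scaffold of the complex, was lower on both of its detected probe sets, by -0.26 and -0.39. ATG13, the regulatory subunit, was lower on all 3, but only by -0.12, -0.02 and -0.13. ULK3 had -0.08. ATG101, which stabilises ATG13, read 4.13 and 4.38 (0.24) and was the only gene of the 6 to be higher.

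RPTOR and ULK1 lay in a part of the scale where differences spread more widely than over all detected genes. In detected genes with a mean value of 2 to 4, a range chosen after seeing these data, the SD of the difference was 0.37 and 0.741% were at least 2-fold lower. Over detected genes of any level the SD was 0.30. That range held 9 members, and RPTOR and ULK1 were those at least 2-fold lower. Above the 75th percentile of the mean value over all probe sets other than controls (a mean above 3.37, which 8086 of the 13150 detected genes passed) neither gene was kept, and there 25 of 40 members were lower, which is 62.5%, where 46.2% of all genes above that level were lower. The lean towards lower values was thus also present without RPTOR, ULK1 and the 5 other members under that level.

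**Figure D2:**
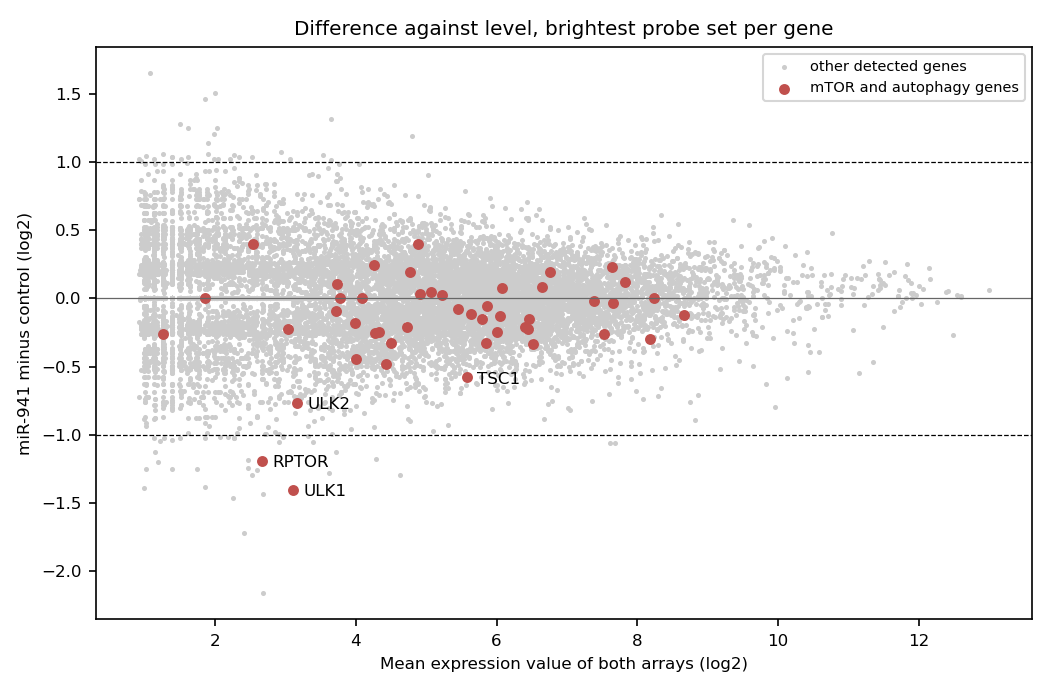
Difference (miR-941 minus control, log2) against the mean value of both arrays (log2) for the 47 mTOR and autophagy genes (red) and the other detected genes (grey), 1 brightest probe set per gene; dashed lines mark 2-fold. RPTOR (-1.19) and ULK1 (-1.40) are the 2 red points beyond 2-fold, in a range where differences spread more widely than over all detected genes. Most red points at higher values lie between 0 and -0.58.

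The class III PI3 kinase complex, which marks the forming membrane with a phosphoinositide, was split. PIK3C3 (VPS34), the kinase, read 4.68 in the control and 5.08 with miR-941 (0.40), and its 6 other probe sets were below the detection level. ATG14, which brings the kinase to the site where autophagosomes form, read 4.23 and 3.78 (-0.45). PIK3R4 (VPS15), the regulatory subunit, had -0.23. BECN1 (Beclin 1), the core scaffold, was lower on both detected probe sets, by -0.15 and -0.48. UVRAG, which takes the place of ATG14 in a second form of the complex, had 0.05. AMBRA1, which binds BECN1, read 4.09 on both arrays on its brightest probe set, and 3.46 and 3.65 on the other. The complex as a whole had 3 genes lower, 2 higher and 1 equal, so its kinase and its targeting subunit differed in opposite directions.

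Of the 5 genes of membrane supply, 4 were lower and 1 equal on the brightest probe set. Of all detected genes, 42.4% were lower and 46.3% higher. ATG2B, one of a pair of proteins that carry lipid into the growing membrane, read 6.01 and 5.68 (-0.33). Its other detected probe sets were equal at 3.59 on both arrays and lower at 2.28 and 1.25 (-1.03). ATG2A, the other lipid carrier, had -0.24 and ATG9A, the membrane protein of the vesicles that seed it, had -0.15, each on 1 probe set. WIPI2, which reads the phosphoinositide and recruits ATG16L1, read 7.39 and 7.37 (-0.02), with its 4 detected probe sets on both sides of 0. WIPI1, a relative of WIPI2, read 1.86 on both arrays on its brightest probe set, and 0.92 and 1.39 (0.47) on the other. Both readings are near the detection level, and the equal values do not show an unchanged mRNA.

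Of the 10 genes of the conjugation system, 6 were lower, 3 higher and 1 equal, and none passed 1.5-fold. ATG12, the ubiquitin-like protein joined to ATG5, had the lowest difference of the 10: it read 4.66 in the control and 4.34 with miR-941 (-0.32). Its 3 probe sets disagreed, with one higher by 0.59 and a mean over the 3 of 0.0038. ATG3, the enzyme that hands ATG8 proteins to their lipid, read 8.33 and 8.03 (-0.29) on 1 detected probe set. ATG16L1, which places the ATG12 and ATG5 pair on the membrane, had the highest difference of the 10 (0.19), with readings of 4.67 and 4.87. ATG5 read 7.76 and 7.88 (0.12) on its brightest probe set and was lower on the other 2, by -0.45 and -0.19. ATG7, the activating enzyme for both conjugation reactions, had -0.18 and ATG10, the enzyme that joins ATG12 to ATG5, had -0.22, each with 1 of 3 detected probe sets higher. Of the proteases that trim ATG8 proteins and release them again, ATG4A had -0.25, ATG4C -0.06, ATG4D 0.00 and ATG4B 0.03. On the brightest probe set the conjugation genes thus differed by no more than about the 0.29 spread between probe sets of a gene. Other detected probe sets went further, in both directions: -0.63 and 0.52 in ATG10, 0.59 in ATG12 and -0.45 in ATG5.

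Of the 4 genes of ATG8 proteins, which coat the membrane and bind cargo receptors, 3 were higher and 1 lower, all within the 0.29 spread between probe sets of a gene. GABARAP read 7.52 in the control and 7.75 with miR-941 (0.23). MAP1LC3B (LC3B), the most used marker of autophagosomes, was slightly higher on both probe sets, by 0.07 and 0.02, and GABARAPL2 had 0.01. Both MAP1LC3B probe sets are _s_at, a design that can bind several transcripts, and MAP1LC3B2 is a near-identical copy, so the source of their signal is uncertain. GABARAPL1 read 1.39 and 1.13 (-0.26) near the detection level, and it shares sequence with GABARAPL3.

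Of the 3 cargo receptor genes 2 were higher and 1 lower on the brightest probe set. SQSTM1 (p62), which brings ubiquitinated cargo to ATG8 proteins, read 6.60 and 6.68 (0.08) on its brightest probe set. Its other detected probe sets ran from -0.84 (3.48 in the control and 2.64 with miR-941) to 0.39, so 2 of 4 were lower and 2 higher. NBR1, a receptor of similar build, had 0.02 on one and -0.26 on the other. OPTN, a receptor for damaged mitochondria and bacteria, had -0.25 on one and was equal on the other.

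TFEB, the transcription factor that switches on lysosome and autophagy genes, had, with PIK3C3, the highest difference of the members. It read 2.34 in the control and 2.74 with miR-941 (0.40) on one probe set, and 1.54 and 2.24 (0.71) on the other. Both probe sets were thus higher, at low values where differences spread more widely than over all detected genes. LAMP1 and LAMP2 encode the most abundant lysosomal membrane proteins. LAMP1 read 7.67 and 7.63 (-0.04), with its other detected probe set higher by 0.14. LAMP2 read 6.51 and 6.31 (-0.21) on the brightest, and its other 3 were higher, by 0.29, 0.13 and 0.09, for a median of 0.11.

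TFEB is known to bind an E-box with flanking bases, and the windows that hold it are shown because they mark the members that a textbook TFEB site would single out. RefSeq promoter windows (250 bases before to 50 after a gene's start, GRCh38.p14) matched 41 of the 47 members. The 8 letters TCACGTGA, which read the same on both strands and include the shorter E-box CACGTG, stood in a window of 3 members (7.32% of 41) and in 0.98% of all 35116 windows of that length. Capitals mark those letters.
ATG3, chr3:112561940-112561969, minus strand: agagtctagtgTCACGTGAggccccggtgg
LAMP1, chr13:113297199-113297228, plus strand: gacccgcgggaTCACGTGAcgcccgggcgc
LAMP1, chr13:113297226-113297255, plus strand: cgcggcgcagcTCACGTGAcaagcgctgcc
TSC2, chr16:2047859-2047888, plus strand: atgcggccccgTCACGTGAtgcaaggatcg
CACGTG alone stood in a window of 5 members, with ATG14 and ULK3 added, and in 7.26% of all windows. Some members have several windows, 51 in all, so the shares over members and over windows are not on the same base. The differences of the 3 genes were -0.29 (ATG3), -0.04 (LAMP1) and 0.11 (TSC2), on both sides of 0 beside the higher TFEB value. A match describes the letters only and is not a bound site.

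The other probe sets give a check within the arrays, though they share 1 hybridisation per array. The 47 genes had 121 probe sets, of which 88 were detected: 50 lower, 30 higher and 8 equal, with a median of -0.10, where the median of all 23317 detected probe sets was 0.00. Of the 88, 4 were at least 2-fold lower (4.55%), in ULK1, RPTOR, RICTOR and ATG2B, where the share over all detected probe sets was 0.485%. These probe sets read low: the RICTOR one 1.91 in the control and 0.87 with miR-941, under the detection level, and the ATG2B one 2.28 and 1.25. The share over probe sets of a like level was not counted, so the 2 shares are not level-matched. None of the 88 was 2-fold higher, where the share over all detected probe sets was 0.36%. Of 23 members with 2 or more detected probe sets, RPS6KB1, RB1CC1, ATG13 and BECN1 had all of them lower, which is 17.4%, where 17.1% of all 6106 such genes had. MAP1LC3B and TFEB had all of them higher (8.7%, background 16.5%). The share of members with every probe set lower was therefore near the background, and 24 members rest on 1 detected probe set.

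**Figure D3:**
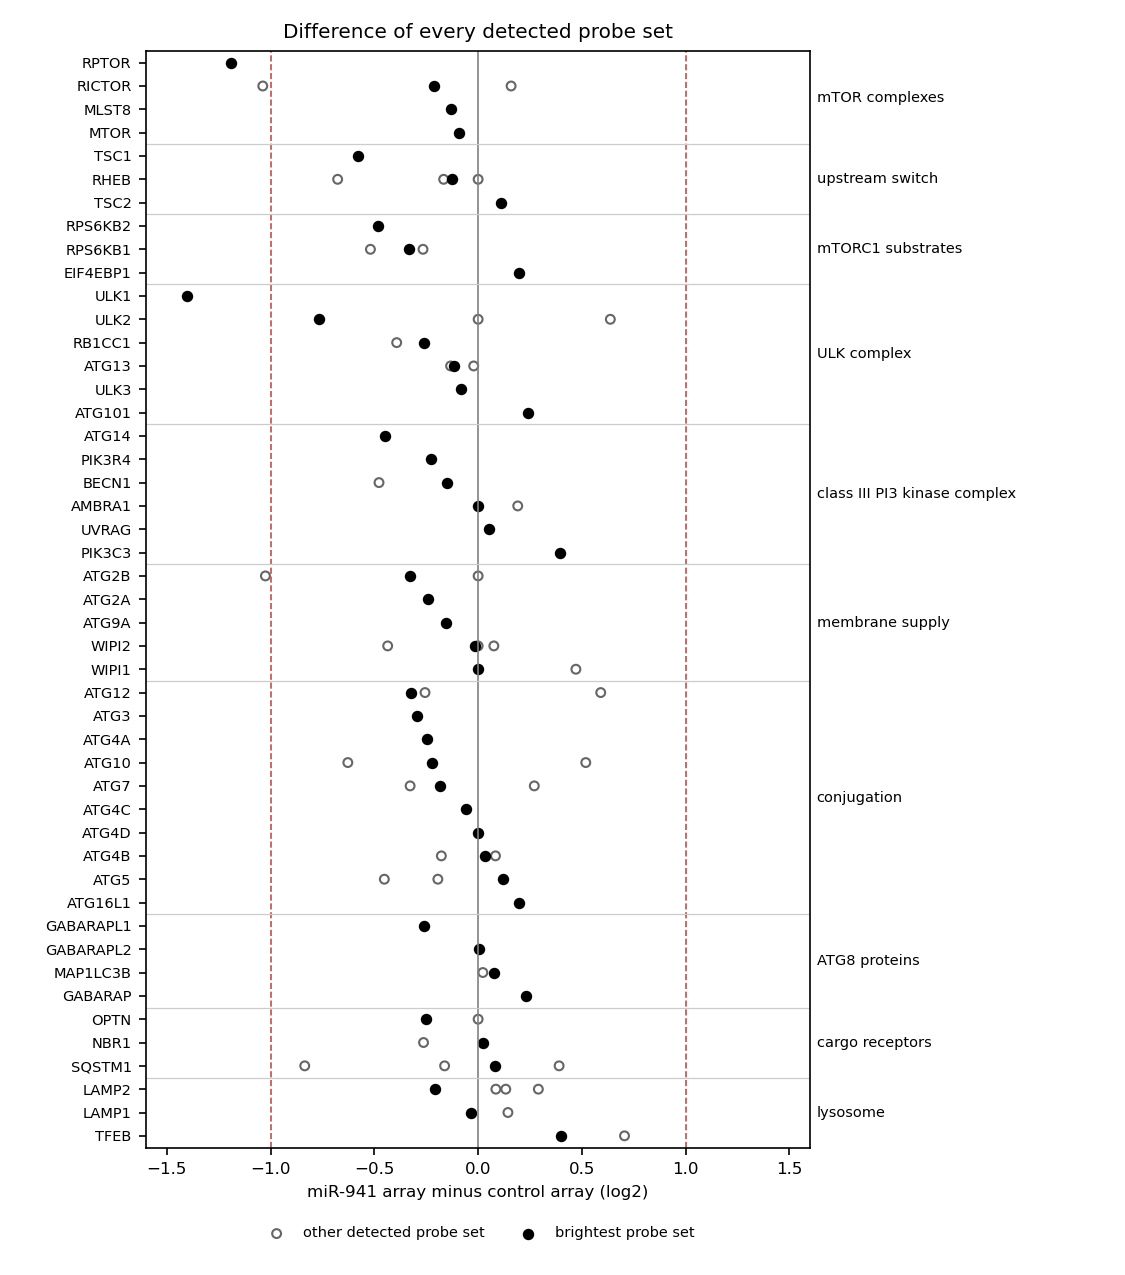
Difference (miR-941 minus control, log2) of every detected probe set of the 47 genes, 88 in all; filled points are the brightest probe set of a gene, open points the others, and dashed lines mark 2-fold. RPTOR and ULK1 have 1 point each beyond -1, RICTOR and ATG2B have 1 open point there, and the points of ULK2, ATG10, ATG12 and SQSTM1 lie on both sides of 0.

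A further list of genes of these pathways held 87, of which 83 were detected. None differed by 2-fold, which is near the background of 0.289% lower and 0.228% higher and says nothing particular of the list. Of the 83, 38 were lower, 34 higher and 11 equal, with a median of 0.00. That is 45.8% lower, close to the 42.4% of all detected genes. Its mTOR genes (45 detected: the Rag GTPases and their regulators, AMPK subunits, sestrins and complex subunits) had 18 lower and 20 higher. The lowest differences were those of FNIP2, a partner of folliculin, at 6.43 and 5.99 (-0.44, lower on all 3 probe sets), RRAGC, a Rag GTPase that docks mTOR on the lysosome, at -0.43 with 1 of 2 probe sets higher, and the AMPK subunit PRKAA2 at -0.27. The highest differences were those of the arginine sensor CASTOR1 and PRR5L, a partner of RICTOR, each at 0.47, and TTI1, which helps to fold and assemble mTOR, at 0.35. CASTOR1 read 1.28 and 1.75, near the detection level. DEPTOR, an inhibitor held in both complexes, had 0.23.

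Among 38 detected genes of the autophagy part of that list, 20 were lower and 14 higher, with a median of -0.05. That is 52.6% lower and 36.8% higher, where 42.4% of all detected genes were lower and 46.3% higher. Of the 37 members of the autophagy arm, 59.5% were lower and 32.4% higher, with a median of -0.08. BNIP3L, a mitophagy receptor, read 5.70 and 5.13 (-0.57), with 1 of 2 detected probe sets lower and a median of -0.29. SH3GLB1 (Bif-1), which binds UVRAG, read 6.48 and 5.93 (-0.56) and was lower on all 3 detected probe sets. TECPR1, which takes part in fusion with lysosomes, had -0.53 on the brightest of 3 probe sets, whose median was -0.05. RAB7A, the GTPase of late endosomes, had the highest difference (0.61, from 6.25 to 6.87), and was the only one of the 83 past 1.5-fold, where the shares over all detected genes were 2.87% lower and 2.94% higher. Of its 5 detected probe sets 3 were higher and none lower, with a median of 0.23. MAP1LC3A had 0.52 on one probe set and was lower on the other, and VPS33A, a subunit of the tethering complex that RAB7A recruits, had 0.40 with both probe sets higher. TFE3 and MITF, the relatives of TFEB, had -0.29 and -0.47, opposite to TFEB.

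**Figure D4:**
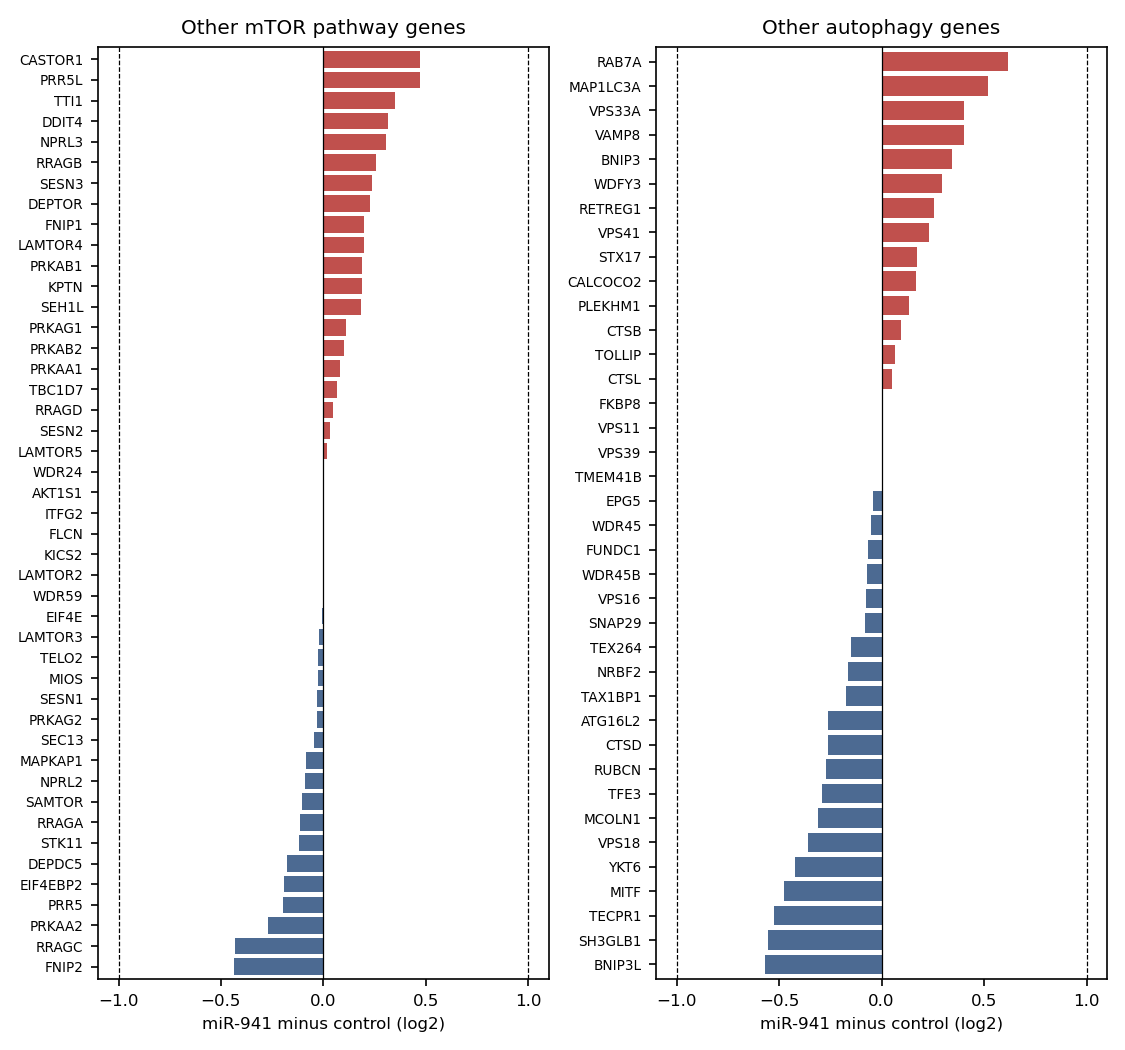
Difference (miR-941 minus control, log2) of the brightest probe set of 83 further detected genes of the mTOR pathway (left, 45 genes) and of autophagy (right, 38 genes), ordered by difference; dashed lines mark 2-fold. No bar reaches 2-fold, and the bars run from -0.57 (BNIP3L) to 0.61 (RAB7A).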

How the data were processed

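RNA from immunoprecipitates of 293T cells was read on 2 arrays, 1 per group, grouped by the transfected oligonucleotide. Each probe set has 1 deposited value, which the authors computed with an RMA package in R, per the labels and the series' design text, and it was taken here as log2. RMA, affy and MAS5 are listed in the submitters' processing notes, with neither versions nor roles. The scale and any centring are not given in the sources used here. Arrays agreed at Pearson's r = 0.992 across detected genes, which are not replicates.

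Of 54675 probe sets, 41091 have 1 gene symbol in the platform annotation, 1801 several and 11721 none, and 62 are controls. Symbols were updated by Entrez identifier through the RefSeq table of GRCh38.p14 (41037 matched). Each gene was given by its brightest probe set, detected when the mean of both arrays exceeded 0.92, the median over probe sets other than controls. No test was possible with 1 array per group, and the number of arrays limits the precision. Members and lists were chosen with earlier results of these data known. Genes named were all members, plus the 3 highest and 3 lowest of each part of the wider list and a few chosen after their values were seen (DEPTOR, TFE3, MITF). The counting step was tested on simulated data. The alternatives tried were a mean over the detected probe sets, dropping _x_at and _s_at probe sets, other level filters and folds, quantile normalization, a loess trend removed (span 0.3) and a floor on low values. Python 3.11.15 and pandas 2.3.3 were used.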

Additional observations from a re-analysis of the deposited data

Results flagged for a closer look

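A probe set shared by GABARAPL3 and GABARAPL1 took no part in the gene comparison because it names more than 1 gene. It read 2.30 in the control and 2.61 with miR-941, a log2 difference of 0.31, while the detected probe set that names GABARAPL1 alone differed by -0.26.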

How the results depend on the processing

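No paired analysis was possible because there is 1 array in each group, and for the same reason none could be dropped. RPTOR and ULK1 each have 1 detected probe set that 4 of the settings leave as it is, so those settings say nothing of their stability. Quantile normalization gave -1.19 and -1.40 and the loess setting -1.22 and -1.42. Above the 75th percentile of level 0 members were 2-fold lower, since neither gene is tested there, and at a threshold of 4-fold 0 were. At 1.5-fold 3 were lower. Members lower by any amount numbered 30 to 32 under the settings that kept all 47. They were 19 of 32 (59.4%) without _x_at and _s_at probe sets, which leaves fewer members, where 42.8% of all genes were lower. The median difference ran from -0.13 to -0.09. With the loess trend removed 68.1% of members were lower where 51.3% of all genes were. No 2-fold higher member appeared under any of these settings. Of 25 named members 21 kept their sign with the mean over probe sets; ATG12 moved to 0.0038, LAMP2 to 0.08, SQSTM1 to -0.13 and WIPI1, equal before, to 0.24. Without _x_at and _s_at probe sets 14 of 17 kept it, with LAMP2 at 0.29, SQSTM1 at -0.84 and OPTN at 0.00. With quantile normalization and with the loess trend removed 24 of 25 kept it, the exception being WIPI1 at -0.03 and -0.04. Values near 0.92 limit what WIPI1 and GABARAPL1 can show.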

Other observations

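Exact values recurred between probe sets of different genes. On the control array 32.8% of 23317 detected probe sets held a value, equal to 6 decimals, that another detected probe set also held, and on the miR-941 array 33.0% did. For the brightest probe sets of the 47 genes this was so for 11 in the control and 12 with miR-941. The value of ATG4D, 3.78 on both arrays, stood in 20 probe sets of the control array and 37 of the other, where ATG14 and TSC2 were among them. ULK2, TFEB and WIPI1 also held repeated values on both arrays, while RPTOR and ULK1 held none on either array. Their means over both arrays did recur, to the digits given. The ULK1 mean of 3.11 was also that of AQP11, C1orf54 and CASKIN2, among others. The RPTOR mean of 2.67 was also that of C21orf58 and CAMKV. Differences recurred too: the ATG2B probe set at -1.03 shared its value with ACVR2B-AS1 and ATF7.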
